A study of Mus musculus with 6 samples.

Results

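Nup62 and 7 of its neighbours in the nuclear pore, Nup54, Nupl1 (also written Nup58), Nup88, Nup214, Nup93, Nup98 and Nup153, were followed in the mouse hippocampus 24 h after traumatic brain injury (TBI). The 8 genes were taken by symbol from the 52550 genes with deposited counts. Nup62 had been singled out because it differed between TBI and sham in these same libraries, so its own difference is described here without a test. The other 7 were listed for their place in the pore. Every mouse was a young adult male of the C57BL / 6 breed (the J substrain in the study's methods), and all received ketamine and xylazine as anaesthetics. TBI mice (n = 3) had a craniotomy over the right parietal bone followed by controlled cortical impact, a piston blow to the exposed cortex that was set to cause moderate injury. Sham mice (n = 3) had the craniotomy without the blow, so injury from opening the skull is shared by both groups. RNA of each hippocampal sample gave 1 library, and the libraries are named Sham1 to Sham3 and TBI1 to TBI3. The study's methods describe exposing the hippocampus on both sides of the brain, and how the sides were divided over the libraries is not given in the sources used here.

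Nuclear pore complexes are the gates through which proteins and RNA pass between nucleus and cytoplasm. Nup62 lines the central channel as part of a coiled-coil complex with Nup54 and Nup58, and its phenylalanine-glycine (FG) repeats help to form the barrier that transport receptors cross. A separate pool of Nup62 binds Nup88 and Nup214 on the cytoplasmic face, where exported mRNA is released. Nup93 ties the channel complex to the inner ring, Nup98 is an FG protein found on both faces, and Nup153 belongs to the nuclear basket. Neurons do not divide, and many scaffold proteins of their pores are known to be very long-lived.

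The deposited counts summed to between 31630936 and 41771872 per library, and levels are given as CPM, which puts the counts of every library on 1 scale after TMM scaling with factors of 0.970 to 1.02. Values per library are given in the order of the replicate number, and means are followed by the SD over the 3 libraries of a group. The comparison of TBI with sham used the quasi-likelihood test of edgeR over 18795 genes that passed a filter on low counts, and a positive log2 fold change means a higher level in TBI. Adjusted p-values are those of edgeR over all genes tested. Of the 8 members 7 passed that filter, all with counts in every library of both groups. All 10 markers of hippocampal neurons were detected, with summed levels of 760.1 to 1067 CPM in sham and 454.5 to 696.6 CPM in TBI. A pair of libraries stood apart from the rest on the first principal component, Sham2 at 79.5 and TBI1 at 47, with the others between -50.1 and -19.6. The summed level of 10 reactive astrocyte markers was 5106 CPM in Sham2 and 657.8 to 1803 CPM elsewhere, and that of 6 oligodendrocyte markers was 2862 CPM in Sham2 and 8537 to 10490 CPM elsewhere. The summed level of 8 striatal markers was 4921 CPM in TBI1 and 160.4 to 237.2 CPM elsewhere. The values of members and gene lists that turn on Sham2 or TBI1 are also given without them. In tissue of mixed cells, fewer cells of a type and less RNA per cell cannot be told apart.

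Nup62 (ENSMUSG00000109511.1) occupies 44816088 to 44830812 of chromosome 7 (GRCm38, plus strand), with 5 annotated transcripts of 2 exons each. Its whole coding sequence of 1578 bases sits in 1 exon, from 44828487 to 44830812. In the transcripts with the longest coding sequence, that of Nup54 is split over 12 exons, that of Nup88 over 17, that of Nup93 over 21, that of Nup153 over 22, that of Nup98 over 32 and that of Nup214 over 36. The primer pair that the study designed for RT-qPCR of Nup62 matched 4 of its 5 transcripts and no transcript of another gene. The amplicon of 131 bases is shown because it marks the part of Nup62 that the second assay of the study reads, on chromosome 7 from 44828680 to 44828810, inside the coding sequence and free of annotated exons of other genes. The sequence runs along the plus strand of GRCm38, and capitals mark the primer sites.
Nup62 amplicon: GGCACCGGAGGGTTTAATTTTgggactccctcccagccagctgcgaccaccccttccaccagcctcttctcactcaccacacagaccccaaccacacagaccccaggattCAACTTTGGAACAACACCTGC
The gene span of Il4i1 on the same strand, from 44816387 to 44840809, takes in the coding exon of Nup62, but exonic bases are shared in the first exon of Nup62 alone. There Il4i1 shares 97 bases, from 44816387 to 44816483, and Atf5 on the opposite strand shares 82 of these, from 44816402 to 44816483.

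The 250 bases before the RefSeq start sites of Nup62, Nup54 and Nupl1 are shown next, since these genes encode the 3 proteins of the channel complex. Each is written 5′ to 3′ on the strand of its gene, from RefSeq on GRCm38.p6, at chr7:44815838-44816087 (plus strand), chr5:92435200-92435449 (minus strand) and chr14:60251480-60251729 (minus strand). Capitals mark matches on either strand to the letters of the CCAAT box, the GC box (GGGCGG), the ETS core (CCGGAAG), the cyclic AMP response element (TGACGTCA), an E-box (CACGTG), the core of the NRF1 motif (CGCATGCG) and the TATA box (TATAAA), and no matches overlapped in these windows.
Nup62: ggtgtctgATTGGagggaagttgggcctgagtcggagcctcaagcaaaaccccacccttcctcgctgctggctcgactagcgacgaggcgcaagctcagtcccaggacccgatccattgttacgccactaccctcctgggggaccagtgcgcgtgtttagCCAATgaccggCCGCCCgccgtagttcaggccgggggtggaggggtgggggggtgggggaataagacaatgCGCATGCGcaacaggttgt
Nup54: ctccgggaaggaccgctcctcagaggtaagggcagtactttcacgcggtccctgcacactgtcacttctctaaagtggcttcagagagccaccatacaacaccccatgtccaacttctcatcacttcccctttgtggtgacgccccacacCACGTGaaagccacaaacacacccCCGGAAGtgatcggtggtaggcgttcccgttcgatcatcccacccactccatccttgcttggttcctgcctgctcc
Nupl1: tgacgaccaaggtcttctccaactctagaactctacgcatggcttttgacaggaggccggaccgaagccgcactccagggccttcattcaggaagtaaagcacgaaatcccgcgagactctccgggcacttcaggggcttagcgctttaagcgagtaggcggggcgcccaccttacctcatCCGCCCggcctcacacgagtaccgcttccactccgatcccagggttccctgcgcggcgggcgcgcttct
The Nup62 window held 2 CCAAT boxes, 1 GC box and 1 NRF1 core. These letters occur in 33.8%, 32.7% and 1.55% of the 32851 RefSeq promoter windows of the same length. Windows of the other 7 members held no NRF1 core, a motif that was shortened after the matches were seen. Nup54 had 1 ETS core (6.91% of windows) and 1 E-box (6.02%), and Nupl1 had 1 GC box. With 17, 11 and 23 CG dinucleotides, the windows of Nup62, Nup54 and Nupl1 were all above the median of 6 over all windows. A match in the letters is a description and not a measured binding site.

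Nup62 stood at 10.4, 8.62 and 9.59 CPM in the sham libraries, against 34.8, 30.4 and 30.8 CPM in the TBI libraries. Every TBI library was above every sham library, and the lowest TBI level was 2.93 times the highest sham level. Such a separation upward was seen for 4.77% of all genes tested, and nothing is read from it here because the gene was chosen on this contrast. The sham mean of 9.54 ± 0.887 CPM was set against a TBI mean of 32.0 ± 2.45 CPM (SD, n = 3 each), and the fitted change was 3.36-fold, given without an interval. Sham2, which stood apart in its glial markers, had the lowest Nup62 level of the sham group, and TBI1 had the highest of the TBI group. Without both libraries the log2 fold change was 1.61, against 1.75 with all 6.

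**Figure D1:**
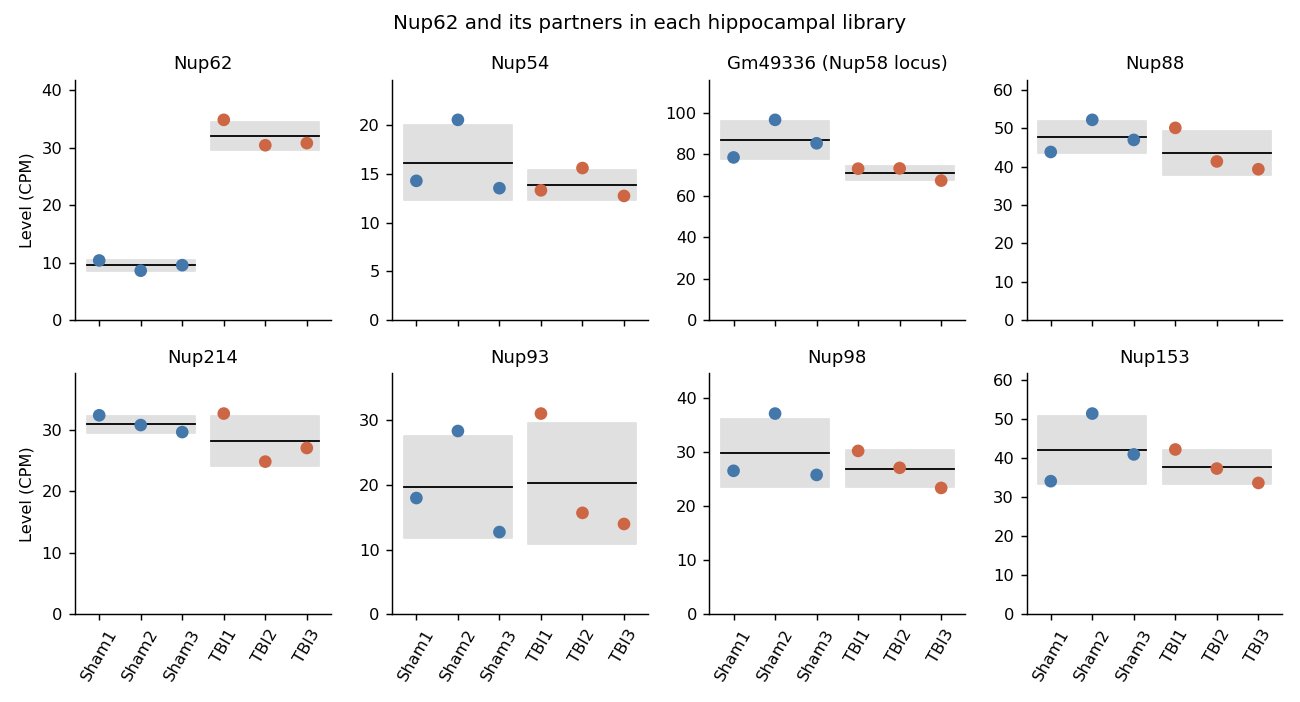
CPM (vertical axes, from 0) of Nup62, of its 6 tested partners and of Gm49336, the gene model of the Nup58 locus, in each library (points, blue for sham and orange for TBI), with the group mean (line) and 1 SD either side (grey band). Nup62 sits at 8.62 to 10.4 CPM in sham and 30.4 to 34.8 CPM in TBI, while in every other panel but that of Gm49336 the groups overlap.

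Nup54, the channel partner that forms the coiled-coil complex with Nup62, stood at 14.3, 20.5 and 13.5 CPM in the sham libraries, against 13.3, 15.6 and 12.7 CPM in the TBI libraries. The groups overlapped, and Sham2 was the highest library. From a sham mean of 16.1 ± 3.84 CPM to a TBI mean of 13.9 ± 1.51 CPM, the log2 fold change was -0.22 (95% interval -0.73 to 0.29, adjusted p = 0.982). The difference rested on Sham2, since the log2 fold change of Nup54 was -0.0035 without Sham2, -0.19 without TBI1 and 0.026 without both.

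Nupl1, the symbol of the third channel protein, was listed at 0 in all 6 libraries. In GENCODE vM21 this symbol belongs to a single transcript without a protein-coding label, on the minus strand of chromosome 14 from 60184612 to 60251431, which runs on into Atp8a2. Other annotated genes share 1997 of its 3602 exonic bases (55.4%). RefSeq places Nupl1, with the synonym Nup58, from 60205284 to 60251479, and the GENCODE gene over that stretch is Gm49336, from 60205282 to 60251507, with 7 transcripts of which 3 are coding. Gm49336 shares 1756 bases with the Nupl1 model. The 0 of Nupl1 is thus the value of a gene model and not a measure of Nup58 mRNA, and Gm49336 is given beside it from here on, a choice made after these values were seen.

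Gm49336 was at 78.5, 96.6 and 85.3 CPM in the sham libraries, against 73.1, 73.2 and 67.4 CPM in the TBI libraries. All TBI libraries were below all sham libraries, as for 5.45% of the genes tested. From a sham mean of 86.8 ± 9.15 CPM to a TBI mean of 71.2 ± 3.36 CPM, the log2 fold change was -0.29 (95% interval -0.57 to 0.0016, adjusted p = 0.982). The difference did not pass the test. Its log2 value lay between -0.35 and -0.20 over 17 other settings, with an unadjusted p under 0.05 in 5 of them. Relative to Nup54 the Gm49336 level per kilobase had a mean of 1.44 ± 0.209 in sham against 1.35 ± 0.108 in TBI, and the ranges overlapped.

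On the cytoplasmic face, Nup88 stood at 43.8, 52.2 and 46.9 CPM in the sham libraries, against 50.1, 41.3 and 39.3 CPM in the TBI libraries. The sham mean was 47.6 ± 4.22 CPM and the TBI mean 43.6 ± 5.72 CPM, with a log2 fold change of -0.13 (95% interval -0.47 to 0.21). Nup214, the large FG protein that holds Nup88 at the pore, stood at 32.4, 30.8 and 29.6 CPM in the sham libraries, against 32.6, 24.8 and 27.0 CPM in the TBI libraries. TBI1 lay among or above the sham libraries for both genes, and TBI2 and TBI3 lay below them. The log2 fold change of Nup214 was -0.13 (95% interval -0.49 to 0.22), and both genes had an adjusted p of 0.982. Nup88 shares 48 exonic bases with Rabep1 on the opposite strand, a gene of endosome fusion. Rabep1 had a sham mean of 107 ± 6.48 CPM and a TBI mean of 76.5 ± 5.52 CPM, with a log2 fold change of -0.49 (adjusted p = 0.982) and an unadjusted p under 0.05 in all 17 other settings too. Over those settings its adjusted p ran from 0.0968, with DESeq2 on the genes that edgeR tested, to 1, and its change stayed within the 1.5-fold limit. Nup214 shares 451 of its exonic bases (4.67%) with Gm13609, Fam78a, Gm16534 and Mir7674. Reads on such bases may have been counted for either gene, since strand use is not given in the sources used here. The log2 fold change was -0.74 for Gm13609, 0.34 for Fam78a and -0.48 for Gm16534, none with an unadjusted p under 0.05, and Mir7674, with at most 2 counts in a library, was not tested.

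Nup93, the inner ring protein that anchors the channel complex, varied most among the members that did not separate. It was at 18.0, 28.4 and 12.7 CPM in the sham libraries, against 31.1, 15.7 and 14.0 CPM in the TBI libraries, so that its highest library was 2.44 times its lowest. The libraries that stood apart, Sham2 and TBI1, were the highest of their groups. Means were 19.7 ± 7.96 CPM for sham and 20.2 ± 9.42 CPM for TBI. Its log2 fold change of 0.040 had a 95% interval of -0.93 to 1.01 (adjusted p = 0.996). Changes of up to about 1 on the log2 scale in either direction thus lay within the interval. Without Sham2 the log2 fold change was 0.40, without TBI1 it was -0.41, and without both libraries it was -0.051.

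Nup98, whose transcripts encode an FG protein and, from a joint precursor, the scaffold protein Nup96, stood at 26.5, 37.1 and 25.8 CPM in the sham libraries, against 30.2, 27.1 and 23.4 CPM in the TBI libraries. The log2 fold change was -0.15 (95% interval -0.61 to 0.32). Nup153, the FG protein of the nuclear basket, stood at 34.1, 51.4 and 41.0 CPM in the sham libraries, against 42.2, 37.3 and 33.6 CPM in the TBI libraries. Its log2 fold change was -0.16 (95% interval -0.60 to 0.28), and the adjusted p was 0.982 for both. For both genes Sham2 was the highest library, and Sham1 and Sham3 lay among the TBI libraries. Without Sham2 the log2 fold change was 0.040 for Nup98 and 0.0077 for Nup153. Without TBI1 the values were -0.24 and -0.25, and without both libraries -0.053 and -0.081.

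Of the 6 partners tested, 0 had an unadjusted p under 0.05, a level reached by 4.29% of all genes tested. Nup93 was higher and the other 5 were lower in TBI. Their median log2 fold change was -0.14, against 0.0091 over all 18795 genes. Counting Gm49336 as well, the median of the 7 was -0.15. Without Sham2 the median of the 6 was 0.0021, without TBI1 it was -0.245, and without both libraries it was -0.067. Sham2 was the highest library for 5 of these 7 genes and TBI1 for the other 2, while TBI3 was the lowest for 5. Summed over the 7 genes the sham libraries held 247.5, 317 and 254.8 CPM and the TBI libraries 272.6, 235 and 217.4 CPM, and the groups overlapped.

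**Figure D2:**
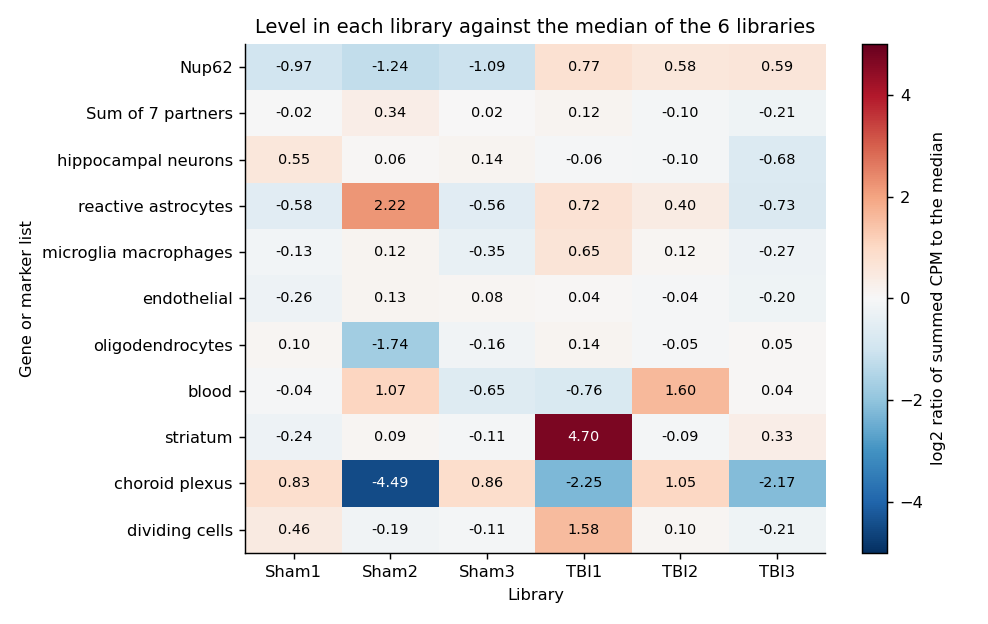
Level in each library (columns) of Nup62, of the 7 partners summed and of 9 summed marker lists (rows), as the log2 ratio to the median of the 6 libraries (colour and printed value). Nup62 is at -0.97, -1.24 and -1.09 in sham, against 0.77, 0.58 and 0.59 in TBI, whereas the astrocyte list is at 2.22 in Sham2 and the striatal list at 4.70 in TBI1.

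The summed level of 8 of the 9 marker lists overlapped between the groups, and that of hippocampal neurons was lower in every TBI library. Of the 10 hippocampal neuron markers 2 were higher and 8 lower in TBI, 0 with an unadjusted p under 0.05, and none of them was at 0 in every library. Without Sham2, 2 were higher and 8 lower, 0 with an unadjusted p under 0.05. Without TBI1 all 10 were lower, 3 with an unadjusted p under 0.05, which 4.33% of all genes reached in that refit. Without both libraries all 10 were lower, 6 with an unadjusted p under 0.05 (5.02% of all genes). The microglia and macrophage list summed to 228.3 to 317.3 CPM in sham and 241.8 to 458.9 CPM in TBI, with 9 of 10 markers higher, 0 with an unadjusted p under 0.05 and none at 0. Without TBI1, 6 of these 10 were higher, 0 with an unadjusted p under 0.05. Without Sham2 all 10 were, 2 with an unadjusted p under 0.05 (3.39% of all genes). Without both libraries 7 of these 10 were, 1 with an unadjusted p under 0.05 (5.02% of all genes). Astrocyte markers summed to 731.9 to 5106 CPM in sham and 657.8 to 1803 CPM in TBI, with 2 of 10 higher, 0 with an unadjusted p under 0.05 and none at 0. This direction turned without Sham2, when 10 of 10 were higher, 4 with an unadjusted p under 0.05, which 3.39% of all genes reached. Without TBI1, 2 of 10 astrocyte markers were higher, 0 with an unadjusted p under 0.05. Without both libraries 9 of the 9 tested were higher, 3 with an unadjusted p under 0.05 (5.02% of all genes). Striatal markers were higher in 8 of 8, 5 with an unadjusted p under 0.05 (4.29% of all genes). They were higher in 8 of 8 without Sham2, in 5 of 8 without TBI1 and in 5 of 8 without both. In each of these refits 0 had an unadjusted p under 0.05. Oligodendrocyte markers were higher in 6 of 6, and without Sham2 in 3 of 6. Blood markers were higher in 5 of 5, with sums of 125.9 to 416.2 CPM in sham against 117 to 601.3 CPM in TBI, and endothelial markers in 3 of 6, with sums of 123.1 to 161.3 CPM against 128.8 to 152.1 CPM. Choroid plexus markers, of which 1 of 5 was higher, summed to 50.3 CPM in Sham2, 237.2 CPM in TBI1 and 251.1 CPM in TBI3, against 2009 to 2333 CPM in the other libraries. In these last 4 lists 0 had an unadjusted p under 0.05, and no marker of the striatal list or of these was at 0 in every library. Markers of dividing cells, which bear on the known part of Nup62 in mitosis, summed to 13.7, 8.75 and 9.22 CPM in the sham libraries, against 29.9, 10.7 and 8.63 CPM in the TBI libraries. The high value was in TBI1 alone. Of the 7 such markers tested 6 were higher (median log2 fold change 0.74), and 2 had an unadjusted p under 0.05, both higher. Without TBI1, 3 of 7 were higher (median -0.069), and of the 2 with an unadjusted p under 0.05 (4.33% of all genes in that refit) 1 was higher and 1 lower. The part of cell composition in the level of Nup62 was not tested.

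Levels of different genes were compared per kilobase of annotated exons. In sham the order was Gm49336 (6.81 CPM per kilobase), Nup153 (6.01), Nup88 (5.85), Nup54 (4.84), Nup93 (4.62), Nup62 (3.34), Nup214 (3.20) and Nup98 (2.37). Each gene overlapped in range with the next, except that Nup98 lay below Nup214. In TBI the order opened with Nup62 at 11.2 ± 0.857 CPM per kilobase (SD, n = 3), above the range of Gm49336 at 5.59. Nup153 (5.38), Nup88 (5.35), Nup93 (4.75) and Nup54 (4.17) followed in TBI with overlapping ranges, and Nup214 (2.92) and Nup98 (2.13) were each below the one before. The rank of Nup62 depended on the length used, since with the longest transcript of each gene it was 8 in sham and 3 in TBI. Among 31 nucleoporins, ranked on exon unions alone, Nup62 held rank 19, 23 and 19 in sham, against 2, 4 and 3 in TBI. On these lengths its share of their summed level was 2.14%, 1.52% and 2.06% in sham, against 6.57%, 6.37% and 6.38% in TBI.

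The ratio of Nup62 to its partners is given as a description, since it contains the gene chosen on this contrast. Over Nup54 it was 0.849, 0.490 and 0.827 in the sham libraries, against 3.05, 2.28 and 2.82 in the TBI libraries, on levels per kilobase. Over Gm49336 it was 0.591, 0.399 and 0.502 in sham, against 2.13, 1.86 and 2.04 in TBI. Nup62 mRNA was thus the scarcer of each channel pair in sham and the more abundant in TBI when exon unions served as lengths. With the longest transcripts, the ratio to Gm49336 stayed below 1 in TBI, at 0.823. On the cytoplasmic face the mean ratio went from 0.577 to 2.11 over Nup88 and from 1.04 to 3.87 over Nup214. With the longest transcripts it went from 0.223 to 0.813 over Nup88, below 1 in both groups, and from 0.749 to 2.78 over Nup214. The ratio to Nup93 was the least separated, at 1.13 in the highest sham library and 1.67 in TBI1. Mean ratios in TBI were between 3.22 (Nup93) and 4.04 (Gm49336) times those in sham, whichever length was used.

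**Figure D3:**
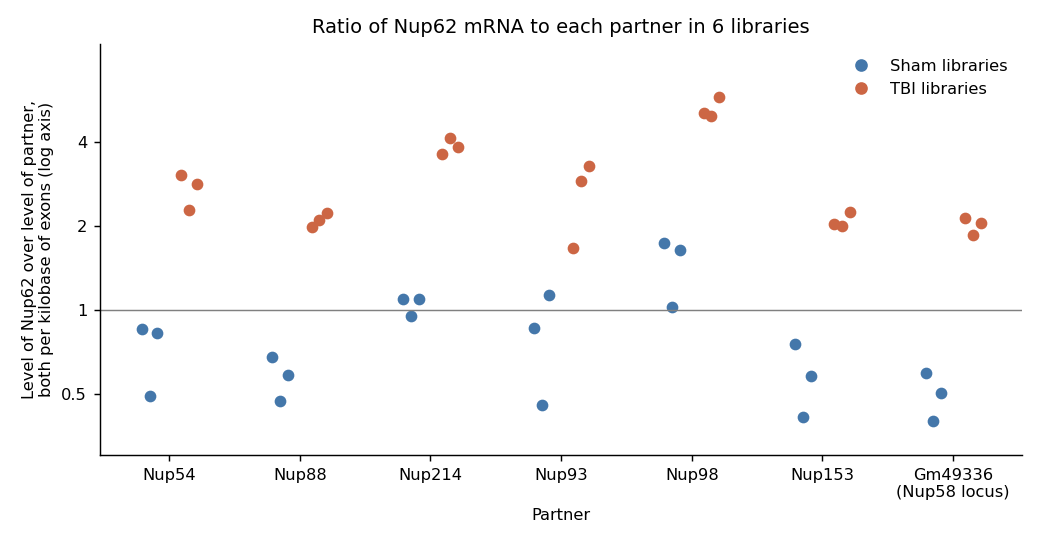
Ratio of the Nup62 level to the level of each partner, both per kilobase of exons (vertical log axis), in the 3 sham libraries (blue) and the 3 TBI libraries (orange), with a line at a ratio of 1. For every partner the TBI points lie above the sham points, by the smallest margin for Nup93 (1.67 in TBI1 against 1.13 in Sham3).

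The other parts of the pore were read from 23 further nucleoporins, all of which passed the filter. Of these 0 had an unadjusted p under 0.05, 10 were higher and 13 lower in TBI, and the median log2 fold change was -0.044. On the cytoplasmic side the largest difference was that of Rae1, an mRNA export factor that binds Nup98. It was at 42.0, 48.7 and 29.9 CPM in the sham libraries, against 28.5, 28.5 and 31.9 CPM in the TBI libraries, so that the groups overlapped through Sham3. Its log2 fold change was -0.44 (95% interval -0.91 to 0.031, adjusted p = 0.982). It was -0.62 without Sham3, the 1 of 17 other settings with an unadjusted p under 0.05, and -0.28 without Sham2. In the inner ring the largest was 0.17 for Nup188, in the Y complex, the outer scaffold, 0.24 for Nup37, in the basket -0.044 for Nup50 and among membrane nucleoporins -0.18 for Ndc1. For each of the 30 nucleoporins other than Nup62 the interval included 0. Of these 30, 16 were highest in Sham2 and 7 in TBI1.

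**Figure D4:**
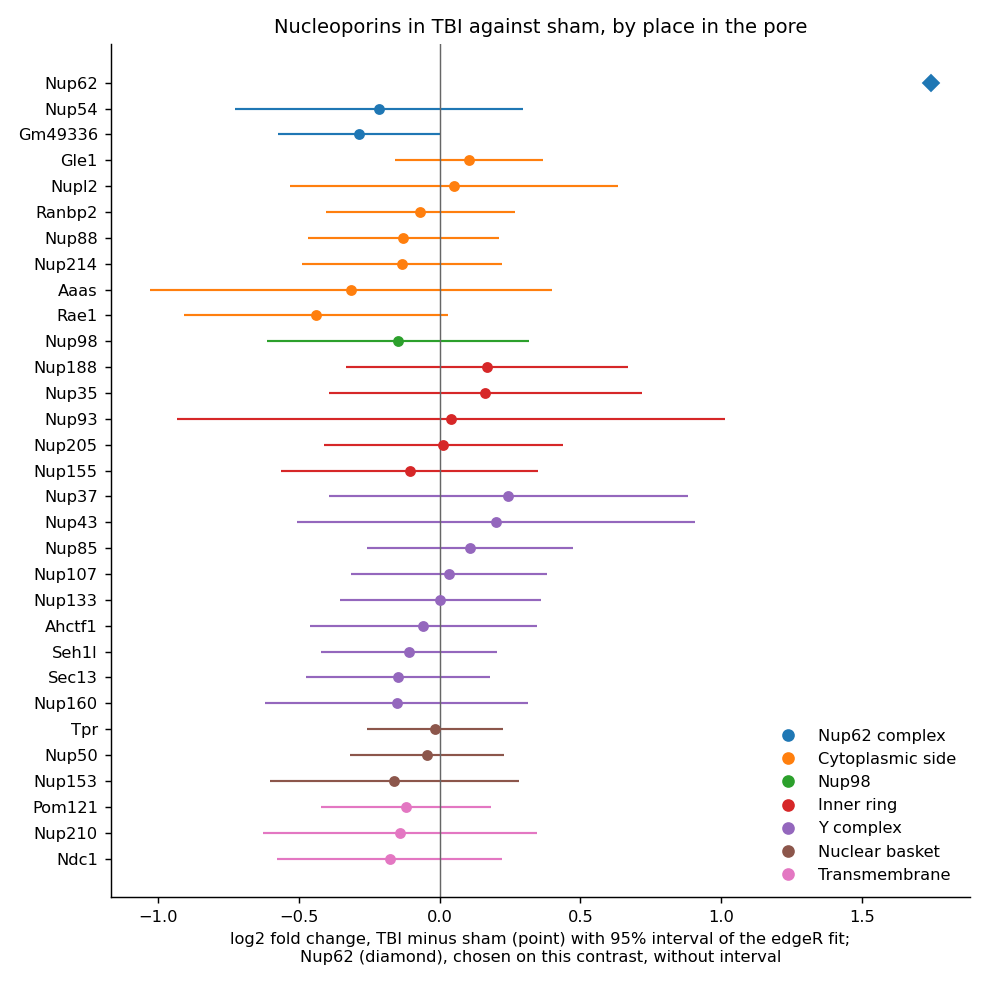
log2 fold change, TBI minus sham (horizontal axis), of each nucleoporin (points) with its 95% interval from the edgeR fit (lines), grouped and coloured by place in the pore. Nup62, chosen on this contrast, is drawn at 1.75 as a diamond without an interval, and the intervals of the 30 others, from Rae1 at -0.44 to Nup37 at 0.24, include 0.

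Paralogs and transport factors were read in the same fit. Nup62cl, the paralog of Nup62, had 5, 25 and 12 counts in the sham libraries, against 9, 25 and 0 in the TBI libraries, too few to show more than that its level was under 1 CPM in every library. Nup210l, a paralog of Nup210, had 14, 11 and 7 counts in sham, against 9, 18 and 22 in TBI (log2 fold change 0.80, adjusted p = 0.982). The 7 transport factors read here, Kpnb1, Tnpo1, Nutf2, Ran, Xpo1, Nxf1 and Nxt1, had log2 fold changes between -0.22 (Xpo1) and -0.054 (Nxf1). All 7 were below 0, their median being -0.13, and 0 had an unadjusted p under 0.05. Of all genes tested 48.6% were below 0. The shared direction was lost without Sham2, when the median was 0.0041. Then 4 of the 7 were above 0, Tnpo1 (0.078), Kpnb1 (0.037), Ran (0.014) and Nxt1 (0.0041). Without TBI1 all 7 were below 0 (median -0.17), and without both libraries 5 of the 7 were (median -0.026).

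Genes beside Nup62 on chromosome 7 were examined because their position is independent of how Nup62 was chosen. Within 100000 bases of its ends 15 annotated genes had counts listed, and 12 were tested. They divided into 5 higher and 7 lower in TBI. The log2 fold changes of these 12 had a median of -0.058. The 2 that overlap its first exon, Il4i1 and Atf5, had log2 fold changes of 0.71 (95% interval -0.82 to 2.24) and -0.037 (95% interval -0.38 to 0.30). Tbc1d17, 3811 bases after the end of Nup62, had a value of 0.32 (95% interval -0.21 to 0.84). Akt1s1, an inhibitory subunit of mTORC1 that starts 18179 bases after Nup62, was the 1 of 12 neighbours with an unadjusted p under 0.05, against 4.29% of all genes tested. From a sham mean of 57.0 ± 10.1 CPM to a TBI mean of 42.2 ± 3.36 CPM its log2 fold change was -0.43 (adjusted p = 0.982), and every TBI library was below every sham library, as for 5.45% of all genes. The unadjusted p was no longer under 0.05 without Sham2 (log2 fold change -0.28), TBI2 (-0.39) or TBI3 (-0.42), or with the replicate number as a block (-0.42). Of the rest, 7 are given here, Zfp473 (0.64), Vrk3 (0.13), Med25 (0.053), Ptov1 (-0.080), Ap2a1 (-0.13), Fuz (-0.18) and D7Bwg0826e (-0.73), each as a log2 fold change with an unadjusted p above 0.05.

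**Figure D5:**
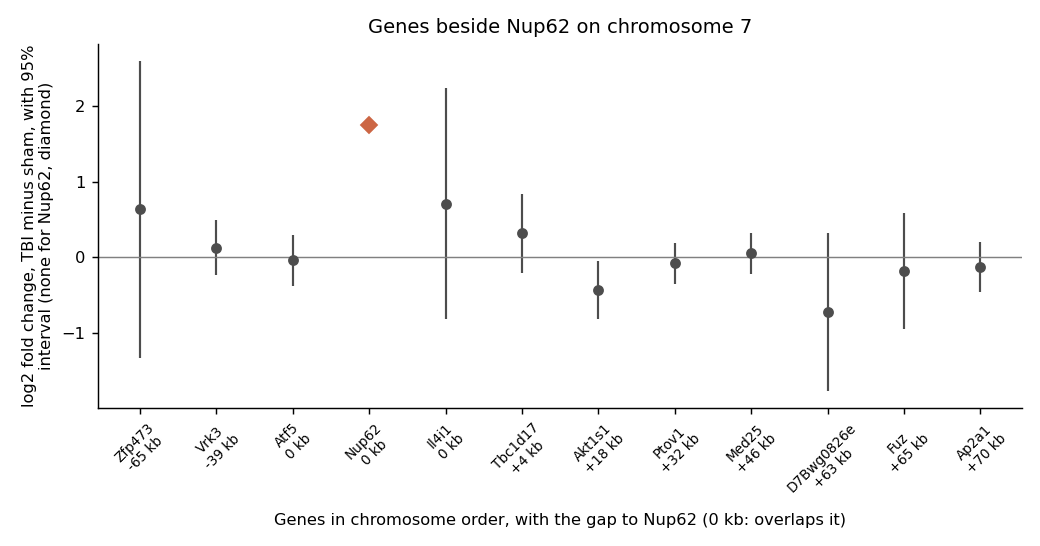
log2 fold change, TBI minus sham (vertical axis), of Nup62 (orange diamond, without an interval) and of 11 of the tested genes within 100000 bases of it (grey, with 95% intervals), in chromosome order and with the gap to Nup62 in kilobases under each name. Nup62 lies at 1.75, and of the genes drawn beside it the interval of Akt1s1 (-0.81 to -0.055) is the one that leaves out 0.

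The genes whose pattern over the 6 libraries was most like that of Nup62, by Pearson r of log2 CPM among 18794 genes, were Trim14 (r = 0.986), Med9os (0.985), Gm42970 (0.984), 4632428C04Rik (0.984) and Itgad (0.983). They were genes of low level. Trim14 had 25, 23 and 21 counts in the sham libraries, against 43, 36 and 38 in the TBI libraries. Itgad, an integrin subunit of phagocytes, had 35, 26 and 35 counts in sham, against 81, 66 and 75 in TBI. By Spearman's rho 0 of these 5 were among the 44 genes that follow the order of Nup62 exactly. Since any gene that separates the groups scores high, the likeness is a description of 2 groups of 3 libraries. By Pearson r no other nucleoporin came near, the highest being Gle1, an mRNA export factor (r = 0.630, rank 1703). Gm49336 stood at the opposite end (r = -0.860, rank 18556). By Spearman's rho the highest nucleoporin was Nup37 (0.6, rank 1830).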

How the data were processed

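Hippocampal total RNA of 3 sham and 3 TBI mice, 24 h after surgery, was sequenced, and groups and replicate numbers were taken from the sample labels. Upstream steps by the authors were read checks (FastQC), alignment against GRCm38 (HISAT2) and transcript models with their abundance (StringTie). Each gene was deposited as a whole number, an estimated count that had not been normalized. Neither tool versions, nor the annotation release, nor how coverage became counts are given in the sources used here. Low values pile up at multiples of 4 (5109 values of 4 against 2325 of 3). Counts therefore do not equal reads, and no counting interval was computed. Totals per library ran from 31630936 to 41771872, and precision was taken from the spread between libraries.

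Of 52550 gene IDs 52403 matched a symbol in GENCODE vM21. Counts were used as deposited in R 4.3.3 with edgeR 4.0.16 (filterByExpr by group, TMM, quasi-likelihood test, Benjamini-Hochberg adjustment over 18795 genes). Calls needed an unadjusted p under 0.05 together with an adjusted p under 0.1 and a change beyond 1.5-fold upward or 0.667-fold downward. By this rule 0 genes (0%) were called, with 806 at an unadjusted p under 0.05, and DESeq2 1.42.0 with its defaults called 46 of 20786 genes (0.221%). The script was tested on simulated data. Levels per kilobase used the union of annotated exons, and likeness used log2 CPM with a prior count of 2. RefSeq promoter windows and the study's primers were matched by exact letters. The NRF1 core was first searched with 1 more base on each side and was shortened after the matches were seen. The Nup62 window was the one member window that matched either form. All 8 members were found in the RefSeq promoter table.

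The members and the gene lists were chosen with earlier results of these data known. Named genes were the members, nucleoporins with a p under 0.05 and the largest change of each subcomplex, paralogs, genes sharing exons with a member, tested genes within 100000 bases of Nup62 and the 5 genes most like it. Tested alternatives were tool, scaling, filters, counts divided by 4, robust dispersions, the replicate block, libraries left out, gene lengths, rank correlation and a window of 500000 bases. Leaving out both Sham2 and TBI1, refitting the marker and transport lists without either, and reading Gm49336 for Nupl1, were added after seeing the data. With 3 against 3, an exact permutation test cannot go below p = 0.1. RT-qPCR and blot values were not analysed here, and 1 tested neighbour of Nup62 is counted but not reported here.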

Additional observations from a re-analysis of the deposited data

How the results depend on the processing

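With edgeR 0 of the 18795 genes were called, against 46 with DESeq2's defaults and 43 with DESeq2 on the edgeR-filtered genes. With 1 library left out the edgeR count ran from 0 to 1, the 1 being Zfp664 without TBI1, and without both Sham2 and TBI1 it was 3 (Zfp664, Tomm5 and Pcdhgb8). The partners with a p under 0.05 stayed at 0 of 6 in all 17 refits. Counting Gm49336 they were 0 of 7 in 12 refits and 1 of 7, Gm49336 itself, in 5. For the other nucleoporins the count ran from 0 to 1 with 1 library left out, the 1 being Rae1 without Sham3. The log2 fold change of Nup62 lay between 1.61 and 1.82, and those of Nup88 and Nup214 kept their sign. Nup88 ran from -0.24 without TBI1 to -0.059 without Sham2, and was -0.063 without TBI3. Nup214 was -0.25 without TBI1 and -0.26 without Sham2 and TBI1, and -0.056 without TBI2. Nup54 was -0.0035 without Sham2 and turned without Sham2 and TBI1 (0.026), with other values down to -0.33. That of Nup93 turned without Sham1 (-0.0097), Sham3 (-0.20), TBI1 (-0.41), or both Sham2 and TBI1 (-0.051), and it was 0.40 without Sham2. With 1 library left out, Nup98 ran from -0.25 to 0.040 and Nup153 from -0.28 to 0.0077, both turning without Sham2. The cause was not tested. Median shifts of all genes stayed under 0.1 on the log2 scale.

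With the mean length of coding transcripts, Nup62 stood at 5.36 CPM per kilobase in sham (rank 8) and 17.99 in TBI (rank 2), since shorter lengths raise every level. The median ratio to the 7 partners in TBI was 2.41 with exon unions and 1.92 with the longest transcripts. By Spearman's rho 0 of the 5 genes most like Nup62 stayed at the top, and a window of 500000 bases held 2 neighbours with a p under 0.05 in place of 1.

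The numbers of the replicates paired nothing in the labels, and same-numbered libraries did not deviate together (r = -0.0996, -0.065 and 0.153). With the replicate block 0 genes were called and 723 had a p under 0.05, against 806 without it, and 0 of the 6 partners passed.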

Other observations

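In the wider window of 500000 bases around Nup62, 58 genes were tested, 29 higher and 29 lower in TBI, and 2 of them had an unadjusted p under 0.05 (3.45%), a share below the 4.29% of all genes. Besides Akt1s1, the gene with an unadjusted p under 0.05 was Slc17a7, the vesicular glutamate transporter of excitatory neurons, named after its values were seen. Its sham mean was 1575 ± 288.7 CPM and its TBI mean 909.8 ± 260.9 CPM (SD, n = 3 each), so that the fitted log2 difference was -0.79 (edgeR adjusted p = 0.982). It had 67319, 72636 and 48102 counts in the sham libraries, against 28281, 37948 and 29801 in the TBI libraries. The lowest was TBI1, the library high in striatal markers, and no value without Sham2 or TBI1 is given for this gene. The summed level of the 10 hippocampal neuron markers, 760.1 to 1067 CPM in sham and 454.5 to 696.6 CPM in TBI, was lower in the same libraries, and its part in this difference was not tested.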
